A study of Mus musculus with 6 samples.

Results

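A set of 10 regulators of mitochondrial biogenesis was followed in hind limb muscle of mice bearing C26 tumors. They were the 3 PGC-1 coactivator genes Ppargc1a, Ppargc1b and Pprc1, the 3 estrogen-related receptor (ERR) genes Esrra, Esrrb and Esrrg, the nuclear receptor gene Ppard, the nuclear respiratory factor gene Nrf1, and Tfam and Tfb2m, whose proteins act on mitochondrial DNA. The genes were chosen by name from their known roles. No threshold on a measured value was used, but earlier results of these data were known. Of the 10 genes, 9 had a probe set among the 18782 uniquely named probe sets of the array, and the expression of Tfb2m was not analysed here. RNA came from snap-frozen gastrocnemius and plantaris muscles of male CDF1 mice that were 8 weeks old at purchase, 25 days after both flanks received an inoculum. In the C26 group (4 mice) the inoculum was C26 colon adenocarcinoma cells, a transplanted tumor line that causes severe muscle wasting, suspended in PBS/matrigel, and in the control group (3 mice) it was PBS/matrigel without cells. RNA of 2 to 3 muscles of a group was pooled, giving 3 C26 pools (replicates 1, 3 and 4) and 3 control pools (replicates 1, 2 and 3), each on 1 Affymetrix Mouse Gene 1.0 ST array.

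PGC-1 proteins bind no DNA themselves. They are recruited by transcription factors, among them the ERRs, PPARs and NRF1, and raise transcription of nuclear genes for the respiratory chain, the tricarboxylic acid cycle and fatty acid oxidation. NRF1 and GABP in turn activate the gene for TFAM, the protein that packages mitochondrial DNA and starts its transcription together with TFB2M and the polymerase POLRMT. In skeletal muscle this network is best known for its response to endurance exercise, in which Ppargc1a transcription is raised by calcium, AMPK, p38 and cAMP signaling.

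The values were log2 probe set intensities, 1 probe set per gene, so isoforms of a gene were not told apart and levels of different genes were not compared. The array medians lay between 4.93 and 5.02, and arrays correlated at 0.994 to 0.996 within a group and at 0.976 to 0.981 between the groups. The background was set at 3.82, the 95th percentile of 1259 probe sets of olfactory and vomeronasal receptors, and all 9 members lay above it in both groups. Differences between C26 and control pools were tested in limma, and p-values were adjusted by the Benjamini-Hochberg method across all 21212 probe sets. The words rose and fell are kept for genes that differed at least 1.5-fold with an adjusted p no higher than 0.05, and changes of single genes are log2 fold changes, C26 minus control, unless given as folds. By this rule 1261 probe sets (5.94%) were higher and 1049 (4.95%) lower in C26 muscle, and centring each array on its median gave 1534 higher and 839 lower. The muscles that make up each pool are not named in the sources, so pools of a group may share a mouse and the p-values measure only the spread between pools. The 9 genes that mark skeletal muscle fibers had mean levels of 12.0 to 12.1 in C26 pools and 12.1 to 12.2 in control pools, and 0 of the 9 passed the rule, with 3 passing the adjusted p alone and 3 an unadjusted p of 0.05.

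Ppargc1b and Esrra fell in C26 muscle, and none of the 9 members rose. That none rose held in 7 of 16 alternative settings, and the other settings called up to 3 members higher, as with median centring. Against the 10.9% of all probe sets that passed in either direction, 2 of 9 members passed, both lower. At the adjusted p alone 7 members passed, of which Pprc1, Nrf1 and Ppard were higher and Ppargc1b, Esrra, Esrrg and Tfam lower, where 30.1% of all probe sets passed in either direction. A fit with the replicate number as a block compares only pools of the same number. Control replicate 2 and C26 replicate 4 have no such partner, so its difference rests on replicates 1 and 3. Nrf1 did not pass with equal variances (adjusted p = 0.0809), unequal variances (0.191) or the replicate block (0.0639), and Ppard did not with the block (0.0869). Tfam did not with unequal variances (0.0795), median centring (0.0745) or the block (0.206), nor in 4 of 6 limma fits without 1 pool (0.0515 to 0.0759). The C26 and control pools did not overlap for 7 of 9 members, compared with 43.9% of all probe sets. At an unadjusted p of 0.05, 4 members were higher and 4 lower, but the share of all probe sets at that p was not counted. The test with unequal variances also called 0 members higher and 2 lower. Of all 21212 probe sets, that test called 760 higher and 621 lower. The median change of the members was −0.10 on the log2 scale, and that of all probe sets was −0.05. In RNA of whole muscle, fewer cells of a type and less RNA per cell cannot be told apart.

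**Figure D1:**
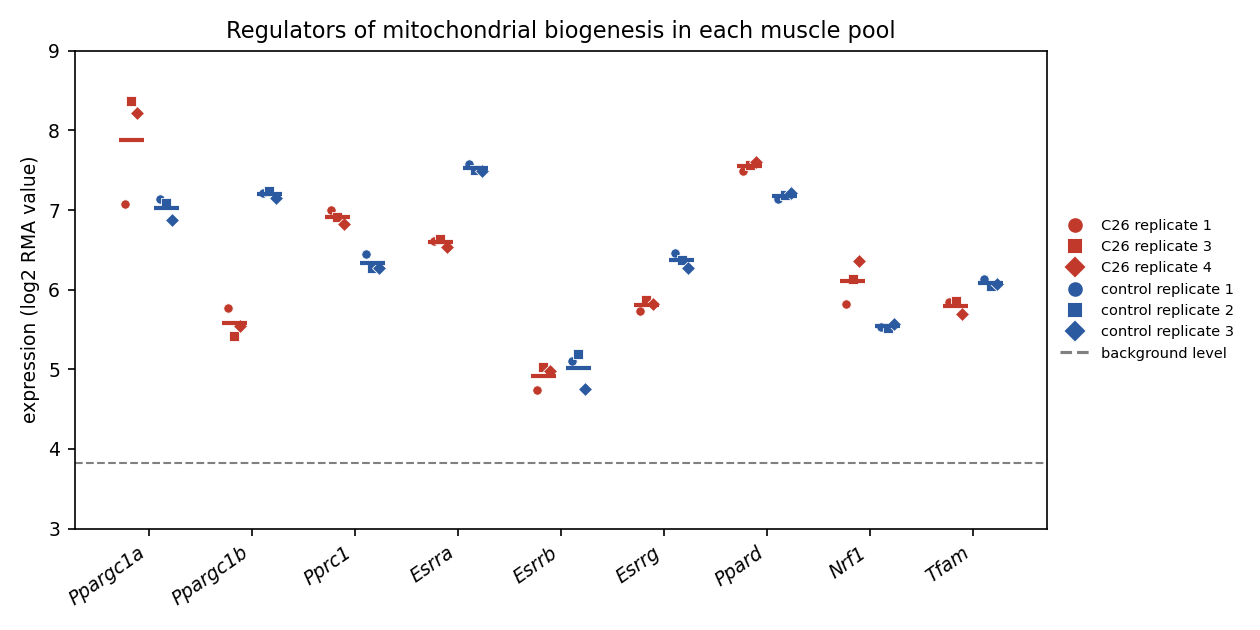
Log2 probe set intensity of the 9 measured regulators in each C26 pool (red) and each control pool (blue), with a horizontal bar at each group mean and a dashed line at the background level. Ppargc1b and Esrra are lower in every C26 pool than in any control pool, and Ppargc1a is split, with C26 replicate 1 at 7.07 among the control pools and the other C26 pools above 8.

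Ppargc1b encodes PGC-1β, a coactivator that shares the ERRs and the NRF1 pathway with PGC-1α and has also been tied to the oxidative program of fast fibers. Its probe set stood at 5.77, 5.42 and 5.54 in C26 replicates 1, 3 and 4, against 7.21, 7.24 and 7.15 in control replicates 1, 2 and 3. The 3 C26 pools were therefore all more than 1 log2 unit under the lowest control pool. The mean was 5.58 ± 0.18 in C26 muscle and 7.20 ± 0.05 in control muscle (SD, n = 3 pools each), which is 3.08-fold lower in C26 muscle (log2 fold change −1.62, SE 0.10, limma adjusted p = 1.47e-05). Leaving out any single pool gave log2 fold changes from −1.72 to −1.55.

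Ppargc1a encodes PGC-1α, the member of the family that responds most to exercise, cold and fasting. Its level was 7.07, 8.37 and 8.21 in C26 replicates 1, 3 and 4, against 7.13, 7.09 and 6.87 in control replicates 1, 2 and 3. C26 replicates 3 and 4 were above every control pool, whereas C26 replicate 1 lay inside the control range. The mean of 7.89 ± 0.71 in C26 muscle and 7.03 ± 0.14 in control muscle gave a log2 fold change of 0.86 (95% interval 0.18 to 1.53, SE 0.29), which did not pass the rule (limma adjusted p = 0.0588). Whether it passed depended on C26 replicate 1 and also on the test and scaling. Without C26 replicate 1 the log2 fold change was 1.26 (limma adjusted p = 0.000278), and over all single pools left out it ran from 0.61 to 1.26. With an intensity trend in limma, with dim probe sets left out and with median centring Ppargc1a passed at adjusted p of 0.04, 0.0381 and 0.0445.

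The proximal promoter of Ppargc1a is shown because CREB and its coactivators, among them the CRTC proteins, are known to act on this gene through a cAMP response element (CRE). Whether the match marked below is that element was not tested. The sequence gives the 250 bases before the RefSeq start, written 5′ to 3′ on the minus strand at chr5:51567726-51567975 of GRCm38.p6, and the capitals mark the match to the CRE core TGACGT in its reverse orientation, 50 to 45 bases before the start.
Ppargc1a: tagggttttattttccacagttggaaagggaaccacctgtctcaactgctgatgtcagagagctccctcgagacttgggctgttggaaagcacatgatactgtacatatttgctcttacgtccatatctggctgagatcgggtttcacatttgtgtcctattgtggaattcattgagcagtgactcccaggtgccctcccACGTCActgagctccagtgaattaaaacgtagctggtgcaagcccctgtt

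Pprc1 encodes PRC, a coactivator of the family that is known for its rapid response to serum and to metabolic stress and that works with NRF1. It measured 6.99, 6.92 and 6.83 in C26 replicates 1, 3 and 4, against 6.45, 6.27 and 6.27 in control replicates 1, 2 and 3. Each C26 pool was above each control pool. The difference of 0.58 on the log2 scale (SE 0.09, limma adjusted p = 0.00118) corresponded to 1.497-fold, just under the 1.5-fold limit, and Pprc1 passed the rule with median centring (0.65), with the replicate number as a block (0.60), without control replicate 1 (0.64) and without C26 replicate 4 (0.63).

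The changes of the 3 coactivator genes were also compared pool by pool. The 95% intervals of these differences, and of those between ERR genes, use a t distribution with equal variances. They do not come from limma or from the exact test. Within a pool, Ppargc1a minus Ppargc1b was 1.30, 2.95 and 2.67 on the log2 scale in C26 replicates 1, 3 and 4, against −0.08, −0.15 and −0.28 in control replicates 1, 2 and 3. The difference between their changes was 2.48 (95% interval 1.05 to 3.90), with no overlap between the groups even for C26 replicate 1. For Ppargc1b and Pprc1 the difference was −2.21 (95% interval −2.49 to −1.93), again without overlap. Between Ppargc1a and Pprc1 the difference was 0.27 with an interval from −0.99 to 1.53, and the pools overlapped. Across the 3 pairs in this family and the 3 pairs of ERR genes, 5 of 6 pairs gave p = 0.1 in a two-sided exact permutation test, the smallest value that 3 against 3 pools allow, and 0.12 after Benjamini-Hochberg adjustment over the 6 pairs. For Ppargc1a and Pprc1 the same exact test gave p = 0.5, also 0.5 after adjustment.

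Esrra encodes ERRα, an orphan receptor that PGC-1 proteins use to activate genes of oxidative phosphorylation and fatty acid oxidation. It measured 6.61, 6.64 and 6.53 in C26 replicates 1, 3 and 4, against 7.58, 7.50 and 7.49 in control replicates 1, 2 and 3. The pools of each group lay close together, and the groups did not overlap. Esrra averaged 6.59 ± 0.05 in C26 muscle and 7.53 ± 0.05 in control muscle (SD, n = 3 pools each), and fell 1.91-fold (log2 fold change −0.93, SE 0.07, limma adjusted p = 4.74e-05), with values between −0.95 and −0.90 when single pools were left out. Its promoter is shown beside the result because ERRα is known, in human cells, to act on its own gene through repeated half-sites near the start. The 250 bases before the RefSeq start lie on the minus strand at chr19:6921809-6922058 of GRCm38.p6 and hold 68.4% G and C. The capitals mark 2 GC boxes (GGGCGG, here in reverse orientation), the motif bound by SP1, at 240 to 235 and at 157 to 152 bases before the start.
Esrra: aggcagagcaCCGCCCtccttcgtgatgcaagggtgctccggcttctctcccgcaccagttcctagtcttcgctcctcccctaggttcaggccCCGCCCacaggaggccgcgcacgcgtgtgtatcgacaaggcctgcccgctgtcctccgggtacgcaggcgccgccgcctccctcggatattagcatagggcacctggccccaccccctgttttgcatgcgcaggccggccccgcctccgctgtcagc

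Esrrg encodes ERRγ, which is enriched in slow, oxidative muscle. It measured 5.73, 5.88 and 5.82 in C26 replicates 1, 3 and 4, against 6.46, 6.37 and 6.27 in control replicates 1, 2 and 3. The groups did not overlap, but the difference of −0.56 (SE 0.08, limma adjusted p = 0.0012) amounted to 1.47-fold and did not reach the fold limit. It did so without control replicate 3 (−0.61) and without C26 replicate 3 (−0.59).

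Esrrb encodes ERRβ, best known from the placenta and from pluripotent cells. It measured 4.74, 5.03 and 4.98 in C26 replicates 1, 3 and 4, against 5.11, 5.19 and 4.75 in control replicates 1, 2 and 3, and the groups overlapped. Its difference was −0.10 with a 95% interval from −0.40 to 0.19 (limma adjusted p = 0.604). The change of Esrra differed from that of Esrrb by −0.83 (95% interval −1.28 to −0.38) and from that of Esrrg by −0.37 (95% interval −0.53 to −0.21), and the change of Esrrb differed from that of Esrrg by 0.46 (95% interval 0.15 to 0.77), all 3 without overlap.

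Ppard encodes PPARδ, a fatty acid sensor and partner of PGC-1α in oxidative muscle. It measured 7.49, 7.57 and 7.61 in C26 replicates 1, 3 and 4, against 7.14, 7.19 and 7.22 in control replicates 1, 2 and 3. The groups did not overlap and the spread within them was small, at 1.30-fold (log2 0.37, SE 0.07, limma adjusted p = 0.00503), which is under the fold limit. Nrf1, the respiratory factor gene, measured 5.82, 6.14 and 6.36 in C26 replicates 1, 3 and 4, against 5.54, 5.52 and 5.57 in control replicates 1, 2 and 3. The C26 pools were again spread, with replicate 1 nearest to the control pools, although outside their range. The log2 difference of 0.56 for Nrf1 (SE 0.13, limma adjusted p = 0.00994) was 1.48-fold, and it was 0.71 without C26 replicate 1 (limma adjusted p = 0.00157), 0.63 with median centring and 0.59 after cyclic loess, 3 settings in which Nrf1 passed.

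Tfam measured 5.85, 5.85 and 5.70 in C26 replicates 1, 3 and 4, against 6.14, 6.05 and 6.07 in control replicates 1, 2 and 3. Every C26 pool was under every control pool, and the difference was −0.29 on the log2 scale (SE 0.08, limma adjusted p = 0.024), or 1.22-fold lower, which is under the fold limit. The Tfam promoter is shown because it is a classic target of NRF1 and GABP, and the difference at Tfam had the opposite sign to that at Nrf1. In the 250 bases before the RefSeq start, on the minus strand at chr10:71238045-71238294 of GRCm38.p6, the capitals mark 1 GABP motif (CCGGAAGT) at 47 to 40 bases before the start and 2 GC boxes in reverse orientation at 130 to 125 and at 108 to 103 bases before it.
Tfam: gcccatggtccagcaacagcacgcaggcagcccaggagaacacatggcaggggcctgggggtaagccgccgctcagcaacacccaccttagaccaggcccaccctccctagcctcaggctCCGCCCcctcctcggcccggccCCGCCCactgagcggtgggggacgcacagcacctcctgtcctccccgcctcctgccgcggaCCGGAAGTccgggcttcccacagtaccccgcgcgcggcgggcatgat

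**Figure D2:**
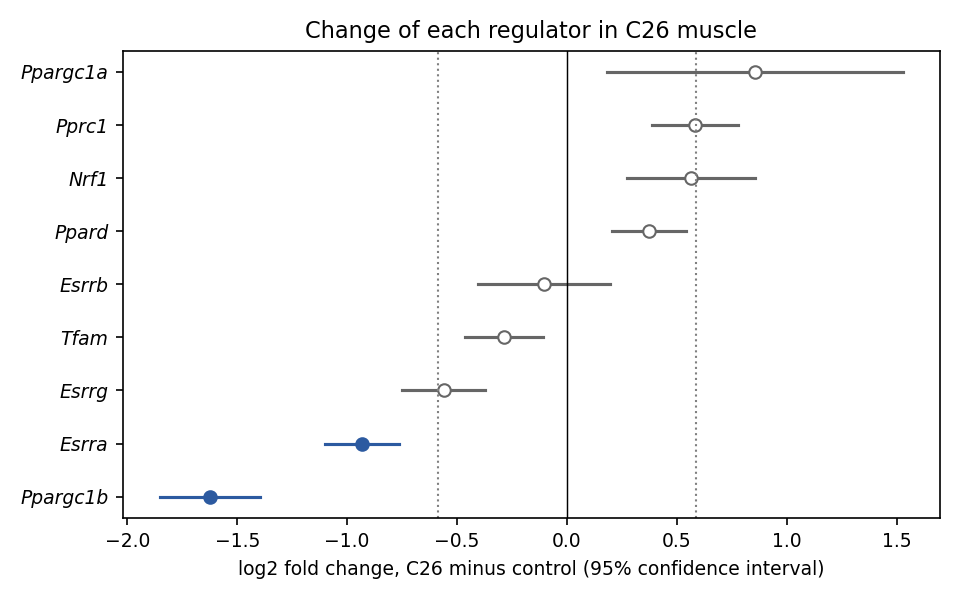
Log2 fold change (C26 minus control) of the 9 measured regulators, with points at the limma estimate and bars for the 95% interval, and dotted lines at the 1.5-fold limit; filled points passed the rule. Ppargc1b at −1.62 and Esrra at −0.93 lie past the limit, Pprc1, Nrf1 and Esrrg lie close to it, and Ppargc1a has the widest interval.

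RefSeq promoter windows, from 250 bases before to 50 bases after a start, were held for 9 of the 10 genes, all but Ppargc1b, in 14 windows and were searched on both strands. An NRF1 motif (GCGC, any base, then TGCGC) was in 0 of 14 windows and in 4.6% of all 32851 windows. The extended ERR half-site (TCAAGGTCA) was in 0 of 14 and 0.423% of all, and its core (AAGGTCA), which the extended form contains, in 0 of 14 and 4.72%. The GABP motif was in 1 of 14, that of Tfam, and in 3.89% of all windows, and the CRE core was in 1 of 14, that of Ppargc1a, and in 7.51%. GC boxes were in 7 of 14 windows, of Esrra, Esrrg, Nrf1, Ppard, Tfam and Tfb2m, and in 35.7% of all windows. These matches describe letters in a window and are not binding sites.

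The split seen at Ppargc1a was looked for in the other genes after its values were seen. Of 13094 named probe sets above background, 306 had C26 replicates 3 and 4 more than 1 log2 unit above the highest control pool, and in 2 of them, Ppargc1a and Ankrd1, C26 replicate 1 lay within or below the control range. Ankrd1, an ankyrin repeat protein of the sarcomere that responds to mechanical stress, measured 5.33, 7.66 and 7.53 in C26 replicates 1, 3 and 4, against 5.47, 5.15 and 5.11 in control replicates 1, 2 and 3. Its log2 fold change of 1.60 (SE 0.53) missed the rule (limma adjusted p = 0.0504).

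A lower value in C26 replicate 1 that still lay above every control pool was common. It was found in 9 of the 17 genes of the related lists that rose and in 778 of all 1261 probe sets called higher (61.7%). How often C26 replicate 3 or 4 was the lowest C26 pool was not counted. Among the 9 were Nr4a3 and Slc25a33, shown as examples chosen after their values were seen. Nr4a3, an orphan receptor induced by exercise and by β-adrenergic signals, measured 6.38, 7.74 and 7.81 in C26 replicates 1, 3 and 4, against 5.96, 5.64 and 5.69 in control replicates 1, 2 and 3. Slc25a33, a carrier that brings pyrimidine nucleotides into mitochondria, measured 6.16, 6.86 and 6.84 in C26 replicates 1, 3 and 4, against 5.20, 5.15 and 5.24 in control replicates 1, 2 and 3.

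**Figure D3:**
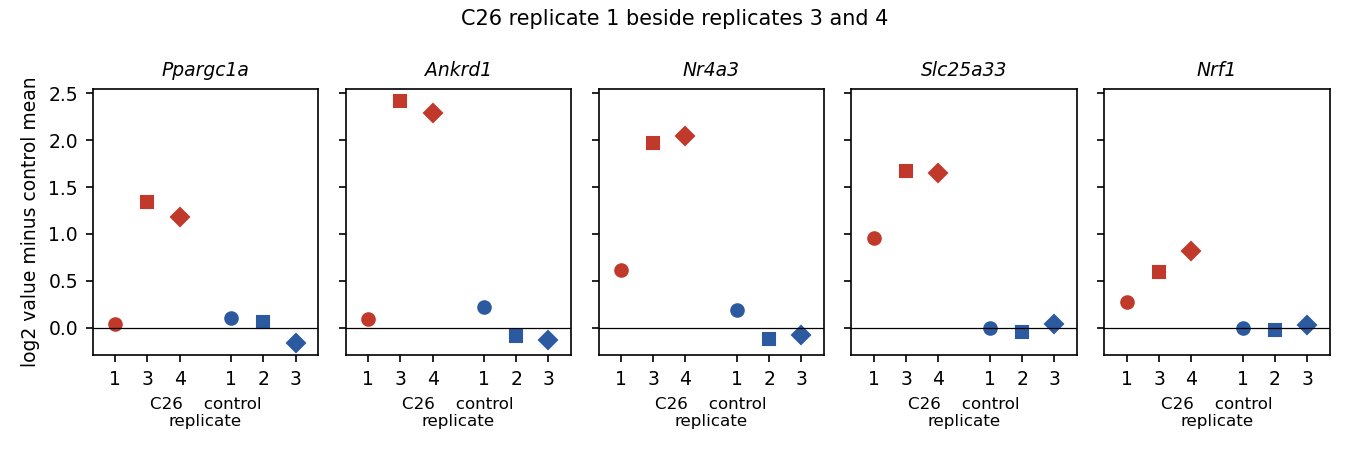
Log2 value minus the control mean in each C26 pool (red) and each control pool (blue) for Ppargc1a, Ankrd1, Nr4a3, Slc25a33 and Nrf1, 1 panel per gene. C26 replicate 1 is at the control level for Ppargc1a and Ankrd1, and is the lowest C26 pool but above every control pool for the other genes.

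The genes most like each called member were ranked by Pearson r over the 6 pools among 13093 other probe sets above background, as a description only, since the 6 pools share 1 contrast between 2 groups. Closest to Ppargc1b were Aimp2, a scaffold of the aminoacyl-tRNA synthetase complex (r = 0.9999, log2 fold change −1.69), the repressor gene Zbtb18 (r = 0.9999, −0.92) and Smox, spermine oxidase (r = 0.9998, −2.22), and 316 genes had r above 0.99. Closest to Esrra were Zyg11b (r = 0.9995, −0.62), the transcription factor gene Maf (r = 0.9992, −1.43) and Alg3, a mannosyltransferase of N-glycan synthesis (r = 0.9991, −0.70), and 221 genes had r above 0.99. For Ppargc1a, looked at after its values were seen, 7 genes had r above 0.99. They were led by Klhl41 (r = 0.996, log2 fold change 0.09), Ankrd1 (r = 0.994) and Nos3 (r = 0.994, log2 fold change 0.14), and neither Klhl41 nor Nos3 passed the rule.

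Among 25 DNA-binding partners of the PGC-1 proteins and other transcription factors of the network, 5 rose and 3 fell, where 5.94% of all probe sets were higher and 4.95% lower, and the list median was 0.12 on the log2 scale. The factors that rose were led by Foxo1, the atrophy-related forkhead factor that PGC-1α coactivates in liver, at 9.68, 9.69 and 9.67 in C26 replicates 1, 3 and 4, against 7.53, 7.61 and 7.65 in control replicates 1, 2 and 3 (log2 fold change 2.08, limma adjusted p = 1.45e-06). Foxo3 rose by 1.35, Myc, which drives ribosome and nucleotide synthesis genes, by 1.59, Nr4a3 by 1.54 and Nfe2l2, the antioxidant factor NRF2, by 1.07. The partners that fell were Mef2c, the muscle factor that PGC-1α coactivates at its own promoter, with a log2 fold change of −1.86 (limma adjusted p = 4.32e-06), Rxrg, the RXR partner of PPARs in muscle, at −1.45, and the clock repressor Nr1d1 (REV-ERBα) at −0.61, a call that most alternatives did not keep. Mef2c measured 8.58, 8.45 and 8.31 in C26 replicates 1, 3 and 4, against 10.33, 10.33 and 10.26 in control replicates 1, 2 and 3. These groups were separated by more than 1 log2 unit in every pool.

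Nr1d1 was spread in control muscle, at 9.60, 9.39 and 9.43 in C26 replicates 1, 3 and 4, against 10.44, 10.18 and 9.64 in control replicates 1, 2 and 3. Its limma adjusted p was 0.0326, and its call held in 6 of 16 alternative settings. The call was lost with median centring (adjusted p = 0.0503), with the replicate block (0.0586), with equal variances (0.17), with unequal variances (0.263), at the 2-fold minimum and in 5 of 6 fits without 1 pool, in which the difference ran from −0.84 to −0.44. Nr4a3 lost its call with equal variances (adjusted p = 0.101) and with unequal variances (0.203), as against 0.00804 in limma. The other PPAR genes differed less, with Ppara at −0.03 (limma adjusted p = 0.903) and Pparg, the adipocyte form, at −0.42 (limma adjusted p = 0.00903). Gabpa, the DNA-binding subunit of GABP, was at 0.23 (limma adjusted p = 0.0796).

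Of 24 measured coregulators and modifiers of PGC-1 proteins, 4 rose and 3 fell (list median 0.03), against 5.94% higher and 4.95% lower of all probe sets. Perm1, a muscle protein induced by PGC-1 and ERR that in turn sustains oxidative genes, measured 7.10, 7.53 and 7.62 in C26 replicates 1, 3 and 4, against 9.12, 9.08 and 8.97 in control replicates 1, 2 and 3. It fell 3.11-fold (log2 fold change −1.64, SE 0.13, limma adjusted p = 5.21e-05), an amount close to that of Ppargc1b, with C26 replicate 1 the lowest pool, and its adjusted p was 0.0521 in the test with unequal variances. Fbxw7, the ubiquitin ligase subunit that marks PGC-1α for breakdown, fell by 1.12, and Sirt3, the deacetylase of the mitochondrial matrix, fell by 0.64. Flcn, the folliculin gene, whose product restrains PGC-1α in muscle and fat of mice, rose by 1.14 and Lpin1, a phosphatase that also coactivates PPARα with PGC-1α, by 1.06. Sirt1, the nuclear deacetylase that activates PGC-1α, rose by 0.81, and Mybbp1a, a repressor of PGC-1α, by 0.76. Nrip1, the corepressor RIP140, was at −0.05 (limma adjusted p = 0.665).

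The Perm1 promoter is shown because its gene is a known ERR and PGC-1 target and changed most in this list. The sequence covers the 250 bases before the RefSeq start on the plus strand at chr4:156215677-156215926 of GRCm38.p6. Capitals mark 1 ERR half-site core in reverse orientation (TGACCTT, the complement of AAGGTCA) at 202 to 196 bases before the start and 1 GC box at 46 to 41 bases before it.
Perm1: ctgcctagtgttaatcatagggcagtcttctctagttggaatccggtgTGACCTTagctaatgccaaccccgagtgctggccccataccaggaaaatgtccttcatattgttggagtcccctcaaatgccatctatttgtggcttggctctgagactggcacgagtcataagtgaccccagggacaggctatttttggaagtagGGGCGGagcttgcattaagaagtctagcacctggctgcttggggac

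Of 31 measured kinases, phosphatases and other factors upstream of Ppargc1a, 1 rose and 4 fell, compared with 5.94% higher and 4.95% lower of all probe sets, with a list median of −0.09. Prkag3, the γ3 subunit of AMPK that is restricted to fast glycolytic muscle, measured 6.96, 6.12 and 6.33 in C26 replicates 1, 3 and 4, against 9.23, 9.24 and 9.12 in control replicates 1, 2 and 3, and fell 6.63-fold (log2 fold change −2.73, limma adjusted p = 2.42e-05). Map2k6, the kinase that activates p38, measured 5.49, 5.64 and 5.42 in C26 replicates 1, 3 and 4, against 7.82, 7.69 and 7.73 in control replicates 1, 2 and 3, and fell 4.70-fold. The groups were far apart for both genes, but the C26 pools of Prkag3 were spread, and its adjusted p was 0.0559 in the test with unequal variances. Camk2a, a calcium/calmodulin kinase gene, fell by 0.97. Prkab2, the AMPK β2 subunit, was at −0.60 and lost its call with median centring (−0.53), without control replicate 1 (−0.57) and without C26 replicate 3 (−0.55). Crtc2, the CREB coactivator, rose by 0.74 (limma adjusted p = 0.00112, and 0.0612 with unequal variances), with 7.45, 7.63 and 7.82 in C26 replicates 1, 3 and 4, against 6.95, 6.78 and 6.94 in control replicates 1, 2 and 3. The catalytic AMPK subunits were at −0.09 for Prkaa1 (limma adjusted p = 0.492) and 0.34 for Prkaa2 (limma adjusted p = 0.00712), and Mapk14, p38α, was at −0.50 (limma adjusted p = 0.00919).

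Of 45 genes for upkeep and expression of mitochondrial DNA other than Tfam, 4 rose and 1 fell (5 of 45, where 10.9% of all probe sets passed in either direction), and the list median was 0.08. Slc25a33 rose by 1.42 on the log2 scale (limma adjusted p = 0.000435), and Ptcd1, a pentatricopeptide repeat protein of mitochondrial RNA processing, by 1.02. Elac2, which trims the 3′ ends of mitochondrial tRNAs, and Mterf3, a factor of mitochondrial ribosome assembly and transcription, both rose by 0.66. Mterf2, which binds mitochondrial DNA, was at 3.02, 3.28 and 2.78 in C26 replicates 1, 3 and 4, against 3.93, 3.84 and 3.82 in control replicates 1, 2 and 3. The C26 values and control replicate 3 were under the background of 3.82 and the other control values just above it, so its change of −0.84 was measured at the edge of detection. Of the core machinery that works with TFAM, the polymerase Polrmt was at 0.08 (limma adjusted p = 0.513), Tfb1m, the rRNA methyltransferase, at −0.23 (limma adjusted p = 0.137) and Twnk, the replicative helicase, at −0.09 (limma adjusted p = 0.46). Polg, the replicative polymerase, was at 0.43 (limma adjusted p = 0.00956).

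Of 37 measured genes known as targets of PGC-1α and the ERRs in muscle, 3 rose and 8 fell, against 5.94% higher and 4.95% lower of all probe sets, and the list median was −0.18. At the adjusted p alone 4 were higher and 17 lower, as against 14.3% higher and 15.8% lower of all probe sets. Genes of the oxidative machinery that fell were Idh3a of the tricarboxylic acid cycle (−0.82), Uqcrc1 of complex III (−0.67) and Sdhb of complex II (−0.61). Ckmt2, mitochondrial creatine kinase, was the most lowered of the list, at 9.84, 9.72 and 9.79 in C26 replicates 1, 3 and 4, against 10.88, 10.90 and 10.85 in control replicates 1, 2 and 3 (log2 fold change −1.09, limma adjusted p = 2.1e-05). Fndc5, the irisin precursor gene, fell by 0.99, Hk2, hexokinase 2, by 0.81, the kynurenine aminotransferase gene Kyat1 by 0.70 and Sod2, the mitochondrial superoxide dismutase, by 0.66. The targets that rose were Pdk4, the kinase that shuts off pyruvate dehydrogenase (1.35), the fatty acid transporter Cd36 (0.75) and Kyat3 (0.75). Pdk4 measured 12.31, 12.15 and 12.08 in C26 replicates 1, 3 and 4, against 10.55, 10.60 and 11.34 in control replicates 1, 2 and 3, so that control replicate 3 lay between the other pools, and its adjusted p was 0.111 with unequal variances. Cycs, cytochrome c, was at −0.44 (limma adjusted p = 0.0588), and Cpt1b, the muscle carnitine palmitoyltransferase, at 0.07 (limma adjusted p = 0.519). Kyat1 and Kyat3, both known to be raised by PGC-1α in muscle of exercised mice, thus changed in opposite directions.

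**Figure D4:**
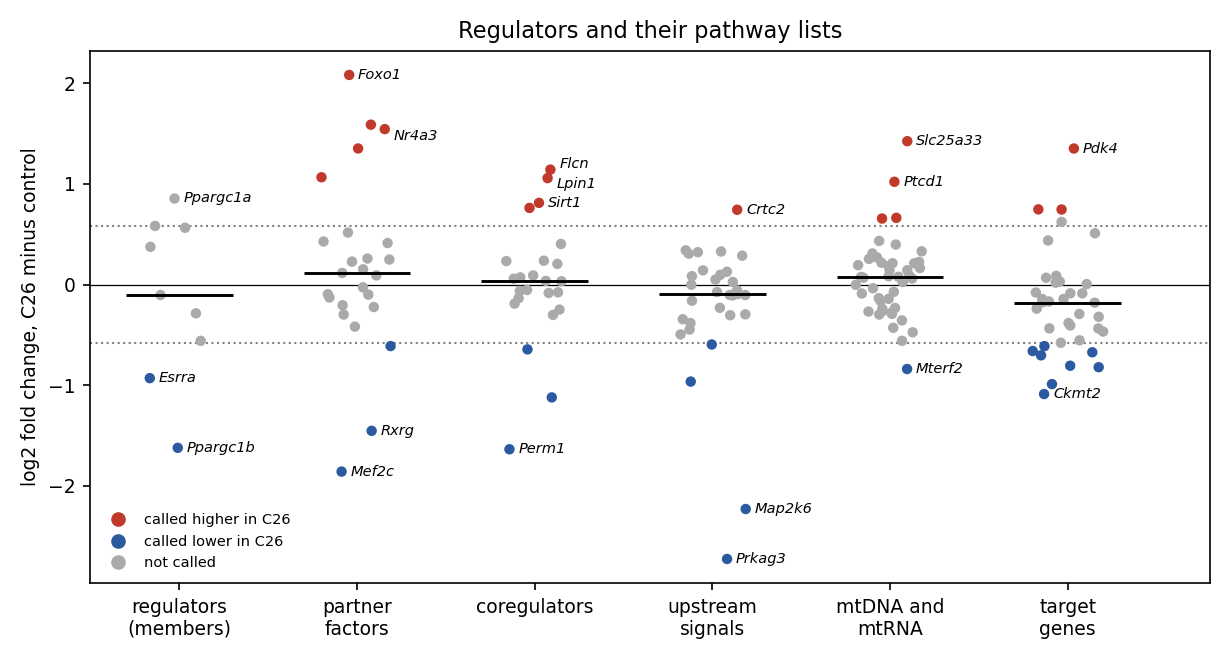
Log2 fold change (C26 minus control) of each measured gene, 1 column for the members and 1 for each of the 5 related lists, with genes that passed the rule in red (higher) or blue (lower), black bars at list medians and dotted lines at the 1.5-fold limit. Prkag3 at −2.73 is the lowest point and Foxo1 at 2.08 the highest.

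Markers of other cell types and fiber types moved with the tumor in the same pools. Of all probe sets, 5.94% were higher and 4.95% lower by the rule, and 14.3% and 15.8% at the adjusted p alone. Of 7 measured macrophage markers 5 were higher, with mean levels of 6.69 to 6.78 in C26 pools and 5.87 to 6.00 in control pools, and of 8 neutrophil markers 5 were higher, with 4.03 to 4.34 in C26 pools and 2.99 to 3.14 in control pools. Among these 5, Ngp was under the background of 3.82 in both groups (means 3.51 in C26 and 2.37 in control muscle). S100a8, Cxcr2 and Retnlg were under it in control muscle only (means 3.16, 2.46 and 3.47), so their changes are lower bounds. Of 8 tendon markers 5 were lower (6.18 to 6.23 in C26 pools, 7.68 to 7.80 in control pools), as were 4 of 8 fibroblast markers. Both lists were split at the adjusted p alone. There 6 tendon markers were lower and 1, Thbs4 (0.43), higher, and 5 fibroblast markers were lower and 2, Pdgfra (0.50) and Pi16 (0.41), higher. White adipocyte markers stood at 5.65 to 5.91 in C26 pools and 6.14 to 6.32 in control pools, with Plin1 (−1.51), Adipoq (−0.59) and Lep (−0.63) lower among 8 measured. The C26 mean of Lep, 3.74, was under the background. The brown adipocyte marker Ucp1, a known PGC-1α target, stood at 3.38, 3.69 and 3.50 in C26 replicates 1, 3 and 4, against 3.50, 3.80 and 4.18 in control replicates 1, 2 and 3, so that 5 of the 6 pools were under the background, and Dio2 (0.61) was higher among the 5 brown adipocyte markers. Of 8 endothelial markers 1 was lower, and both measured red blood cell markers were higher (6.85 to 7.20 in C26 pools, 6.07 to 6.33 in control pools). Slow fiber markers stood at 8.58 to 8.60 in C26 pools and 8.89 to 8.91 in control pools, with 1 of 8 lower, and 1 of 10 fast fiber markers, Mylpf, was lower (−0.70). At the adjusted p alone 5 of 8 slow and 3 of 10 fast fiber markers were lower, and 0 of either list were higher. The list medians were −0.28 for slow and −0.13 for fast fiber markers. The part of these cell and fiber types in the changes of Ppargc1b, Esrra and the other genes was not tested.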

How the data were processed

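Total RNA of pooled gastrocnemius and plantaris muscles (RIN at least 8.0 per the labels) was hybridized to 6 arrays. The authors made the deposited log2 values with RMA in GenePattern and the Brainarray custom CDF, version 13, which corrects background, normalizes by quantiles and summarizes 1 probe set per gene. For the probe annotation the genome build is not given in the sources used. Of 21212 probe sets, 18782 carried 1 unshared symbol and 2420 were unnamed. The fits used limma 3.58.1 with R 4.3.3 (lmFit, eBayes, two-sided, prior degrees of freedom 4.52). Family differences used exact permutation tests in SciPy 1.17.1, and scripts were checked on simulated data. The members and gene lists were chosen from known roles, with earlier results of these data known. The text names all members, up to 6 called genes per list with the largest change, and set genes named whatever their change. Nfe2l2, Sirt3, Uqcrc1, Sdhb, Kyat1, Kyat3, Ankrd1, Klhl41 and Nos3 were added after their values were seen. Other tests, thresholds, scalings, a dim probe set filter, a replicate block and leaving out each pool were tried. Precision is limited by the number of arrays. Promoter windows are RefSeq, GRCm38.p6.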

Additional observations from a re-analysis of the deposited data

How the results depend on the processing

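Alternative settings were run for 66 results under 16 settings. Ppargc1b and Esrra passed in all of them except the 2-fold minimum, which Esrra missed. Without a fold minimum, 3041 probe sets were higher and 3344 lower, with 3 members higher and 4 lower, 10 partners higher, 6 upstream genes higher and 11 lower, 9 mitochondrial DNA genes higher and 9 lower, and 17 targets lower. At 2-fold, 432 probe sets were higher and 307 lower, with 1 member lower, 2 coregulators higher, 0 upstream genes higher and 2 lower, 2 mitochondrial DNA genes higher and 0 lower, and 1 target higher and 1 lower. With unequal variances 760 were higher and 621 lower, with 1 coregulator lower, 0 upstream genes higher, 2 mitochondrial DNA genes higher and 0 lower, and 1 target higher. The named genes that lost their call there were Nr4a3, Nr1d1, Perm1, Prkag3, Crtc2, Slc25a33, Mterf2, Elac2 and Pdk4. Members higher numbered 1 with an intensity trend, with cyclic loess, with dim probe sets left out and with the replicate block, and 3 with median centring. Median centring turned Ppara (0.037) and Nrip1 (0.011). Leaving out single pools gave 0 to 2 members higher (2 without C26 replicate 1), 1 to 2 mitochondrial DNA genes lower, −0.088 to 0.000784 for Nrip1 and −0.11 to 0.14 for Ppara. The replicate number as a block gave 3 mitochondrial DNA genes lower, in a fit to whose difference control replicate 2 and C26 replicate 4 add nothing. After the group mean of each probe set was subtracted, C26 and control pools with the same number correlated at −0.06 and −0.06. The numbers were therefore not taken as pairs. The number of arrays limits the precision, and signal close to or under background limits Mterf2, Ucp1, Lep and several neutrophil markers.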

Other observations

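The RefSeq promoter windows of 2 related lists were searched with the same motifs, as a description. For genes of mitochondrial DNA upkeep, 39 genes with 42 windows were matched. The NRF1 motif was in 6 windows, of Dna2, Exog, Fastkd3, Lig3, Polrmt and Ptcd1, the GABP motif in 8, the CRE core in 15 and a GC box in 27, and the ERR core in 2, of Fastkd5 and Twnk. For targets of PGC-1α and the ERRs, 33 genes with 45 windows were matched. The NRF1 motif was in 1, of Uqcrc1, the GABP motif in 3, the CRE core in 11, a GC box in 24 and the ERR core in 2, of Acadm and Ogdh. Over all 32851 windows the shares were 4.6% for NRF1, 3.89% for GABP, 7.51% for the CRE core, 35.7% for a GC box and 4.72% for the ERR core. Of the genes of these lists that rose or fell, Ptcd1 and Uqcrc1 held an NRF1 motif, Kyat1 a GABP motif, and Slc25a33, Elac2 and Hk2 a CRE core. A GC box was held by Ptcd1, Kyat1, Slc25a33, Elac2 and Hk2, and also by Cd36, Ckmt2, Fndc5, Sdhb and Sod2. For the others that rose or fell no NRF1, GABP, CRE core or ERR core match was found, and some may have no window. Genes that changed were not compared with genes that did not. Windows of 1 gene can overlap, and a match is not a binding site.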
